A study of Mus musculus with 59 samples.

Results

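The heat response of 4 mouse embryonic stem cell lines without METTL3 was measured in 8 RNA libraries, out of 59 samples in the series. Members were chosen by their column names: lines 1d1, 3xU, 1d2 and 2c4d after 1 h at 42 °C, each set against the same line kept at 37 °C. Per the labels, the knockout lines carry the Rosa26:BirA allele and DGCR8 FLAG/Avi together with METTL3KO, in a 129xC57Bl6 hybrid background. Parental cells carry Rosa26:BirA and DGCR8 FLAG/Avi with METTL3 intact; parental 1 and parental 2 were each sampled at 42 °C and at 37 °C (4 libraries). All cells grew on gelatin with LIF, and total RNA depleted of ribosomal RNA was sequenced. Both genotypes therefore share the biotin ligase and the tagged DGCR8. The labels do not say whether the knockout lines were derived independently or whether parental 1 and 2 are different lines, so each p-value covers the spread among these libraries, part of which may be technical.

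METTL3 is the catalytic subunit of the nuclear complex that writes N6-methyladenosine (m6A) on RNA while it is being transcribed. In a heat-shocked cell, unfolded proteins release the transcription factor HSF1, which binds repeated nGAAn elements near the start sites of chaperone genes, while most other genes are transcribed less. The chaperones made in this way, above all HSP70 with its J-domain partners and nucleotide exchange factors, refold or hold damaged proteins.

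Library totals ran from 8667588 to 13579892 counts in the knockout lines and from 7102867 to 13257666 in parental cells. The mitochondrial ribosomal RNA gene mt-Rnr2 alone took 8.3% to 17.2% of a library. The share taken by small nucleolar and Cajal body RNAs was 0.0951% at 42 °C and 0.215% at 37 °C in line 1d1, and 0.293% at 42 °C and 0.0902% at 37 °C in parental 1, against 0.0826% to 0.176% in the other 8 libraries. Of 8 embryonic stem cell markers 3 fell (37.5%, against 2.9% of all genes tested), as described with the pluripotency factors. The levels of these 8 markers summed to 2220 to 3390 CPM (counts scaled to a common library size by the TMM method) in knockout lines at 42 °C and to 2530 to 4100 CPM at 37 °C. Feeder fibroblast markers summed to 6.52 to 14.7 CPM at 42 °C and 5.63 to 14.4 CPM at 37 °C, with 4 of 8 genes too low to test (Lum at 0 in 6 of the 8 knockout libraries) and none of the other 4 called. No tested marker of primitive endoderm (8 genes), neuroectoderm (7), mesendoderm (6) or trophoblast (5) passed the test in the knockout lines.

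Mettl3 RNA, the targeted gene, stood at 29.5, 29.8, 20.5 and 35.5 CPM at 42 °C and at 40.8, 28.6, 21.7 and 29.2 CPM at 37 °C in lines 1d1, 3xU, 1d2 and 2c4d, the order used for all values below. Parental cells had 64.8 and 60.4 CPM at 42 °C and 71.5 and 69.2 CPM at 37 °C. Every knockout library was thus below every parental library, and heat left the gene without a call in the knockout lines (log2 fold change -0.05 ± 0.12, SE; adjusted p = 0.851). The counts cover the whole gene and the labels do not give the deleted part, so the RNA that is left does not measure functional METTL3.

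After 1 h at 42 °C, 605 of 15635 tested genes (3.87%) rose and 453 (2.9%) fell in the knockout lines at an adjusted p under 0.05 in edgeR's quasi-likelihood test with the line as a block. The median log2 fold change was 0.58 among the genes that rose, -0.48 among those that fell and -0.02 over all genes tested. Only 107 of the rises and 35 of the falls were larger than 2-fold. The direction was shared by all 4 lines for 595 of the rises and 445 of the falls, and the 42 °C libraries did not overlap the 37 °C libraries for 240 and 90 of them. Over all genes tested, 3.52% had groups that did not overlap. The rises and falls were called from these same 4 lines, which favours a shared direction. No share of all genes tested with a shared direction is given beside it. In bulk RNA, fewer cells of a type and less RNA per cell cannot be told apart. The counts of calls rested on line 3xU most: without it 189 genes rose and 57 fell, and without line 1d2 324 rose and 140 fell. A core of 177 rises and 52 falls was called with all lines and also without each line in turn.

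The largest rises belonged to the inducible HSP70 genes. Hspa1a, which encodes the stress-inducible cytosolic HSP70, had 175, 205, 245 and 170 CPM at 42 °C and 0.738, 0.941, 1.56 and 0.979 CPM at 37 °C. Hspa1b, its neighbouring and nearly identical copy, had 410, 383, 426 and 367 CPM at 42 °C and 3.27, 5.75, 4.94 and 3.47 CPM at 37 °C. For both genes the 4 heated libraries lay close together and far above every library kept at 37 °C. The fold changes were 184-fold for Hspa1a (log2 7.53 ± 0.16, adjusted p = 4.39e-10) and 91.7-fold for Hspa1b (log2 6.52 ± 0.15, adjusted p = 5.57e-10). Reads that fit both copies may be split between them, so the separate values are uncertain. Per kilobase of exon, Hspa1b reached 141 and Hspa1a 67.2 RPKM at 42 °C, against 1.55 and 0.357 RPKM at 37 °C.

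The start regions of both copies hold the same pair of inverted nGAAn units. RefSeq promoters (build GRCm38.p6, 250 bases before to 50 after each start) were searched for GAANNTTC or TTCNNGAA, which read the same on both strands. Stretches before the start site are shown for 6 chaperone genes that rose and held such a pair, so that spacing and number can be compared, 5′ to 3′ on the gene's own strand, with each match in capitals. The first match began 104 bases before the start site in Hspa1a (chr17:34972228-34972285, minus strand) and in Hspa1b (chr17:34959310-34959367, minus strand). It began 90 bases before it in Dnaja4 (chr9:54699444-54699539, plus strand), 117 in Hspb1 (chr5:135887777-135887854, plus strand), 89 in Hspe1 (chr1:55088034-55088101, plus strand) and 124 in Dnaja1 (chr4:40722319-40722376, plus strand). In Hspe1, 3 overlapping matches join into 1 run of alternating units. Hsph1 held 3 matches, the first of them 33 bases before its start.
Hspa1a: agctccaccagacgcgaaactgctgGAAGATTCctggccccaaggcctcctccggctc
Hspa1b: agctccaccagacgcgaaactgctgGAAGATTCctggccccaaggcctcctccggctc
Dnaja4: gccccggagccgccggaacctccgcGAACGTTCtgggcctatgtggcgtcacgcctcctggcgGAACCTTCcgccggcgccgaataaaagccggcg
Hspb1: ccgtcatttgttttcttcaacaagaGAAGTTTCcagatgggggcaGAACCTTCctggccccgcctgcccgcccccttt
Hspe1: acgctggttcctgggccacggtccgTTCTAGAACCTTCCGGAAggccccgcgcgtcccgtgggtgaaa
Dnaja1: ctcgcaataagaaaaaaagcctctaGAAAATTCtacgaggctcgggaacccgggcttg

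Such a pair was present for 10 of the 16 chaperone and co-chaperone genes that rose and had a promoter in the table (62.5%). It was present for 10 of 42 genes of the same lists that did not pass the test (23.8%) and for 1493 of 10733 tested genes with a promoter (13.9%). Among all genes that rose, 69 of 459 held it (15.0%), and among those that fell 38 of 326 (11.7%). The table as a whole held it in 4587 of 27025 genes (17.0%). Hspa1a and Hspa1b share the same printed stretch and count as 2 of the 10 genes. A longer run of 3 alternating units was also searched for. It was present for 2 of the 16 chaperone genes that rose (12.5%) and 3 of the 42 that did not pass (7.14%). Among all genes that rose 3 of 459 held it (0.654%), against 64 of 10733 tested genes (0.596%) and 1 of 326 that fell (0.307%). Differences in these shares were not tested. A match is a description of the letters in this window and not evidence of binding. The promoters of Dnajb1, Hspa1l, Hspa4l, Serpinh1, Dnajb9 and Ahsa2, which also rose, held neither the pair nor the longer run. In Bag3 and Hspb8, both counted among the 10 that rose, the match began after the start site (base 43 and base 3).

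Of the 14 measured HSP70 and HSP110 genes, 6 rose (42.9%) and none fell, against 3.87% and 2.9% of all genes tested. The median log2 fold change of the list was 0.28. Hsph1, the HSP110 that recharges HSP70 with ATP, had 885, 1196, 663 and 448 CPM at 42 °C and 257, 293, 226 and 200 CPM at 37 °C. The 42 °C libraries all lay above the 37 °C libraries, with line 3xU highest and 2c4d lowest (3.1-fold; log2 1.63 ± 0.12, adjusted p = 4.23e-05). Hspa4l, a further HSP110 relative, rose 2.75-fold (adjusted p = 0.00324), with 44 CPM in heated 3xU against 15.4 to 19 CPM in the other heated lines and 6.22 to 10 CPM at 37 °C. Hspa1l, a low-level HSP70 beside Hspa1a on chromosome 17, had 1.72 to 2.83 CPM at 42 °C and 0 to 0.422 CPM at 37 °C (adjusted p = 0.00219). Hspa13, a microsomal HSP70, rose 1.33-fold with overlapping groups, and its adjusted p of 0.0403 became 0.209 without line 3xU; it also lost its call without 1d1 or 1d2.

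The constitutive members did not pass. Hspa8, the cytosolic housekeeping HSP70, had 448, 461, 531 and 417 CPM at 42 °C and 229, 304, 465 and 429 CPM at 37 °C. It was higher in 3 of the 4 lines and lower in 2c4d, and missed the threshold (log2 0.43 ± 0.14, adjusted p = 0.0903). Hspa5, the HSP70 of the endoplasmic reticulum also known as BiP, averaged 1319 ± 221 CPM at 42 °C and 1292 ± 310 CPM at 37 °C (SD, n = 4 each; log2 0.05 ± 0.08, adjusted p = 0.781). Hspa9, the mitochondrial form, averaged 1086 ± 206 CPM at 42 °C and 1137 ± 223 CPM at 37 °C (adjusted p = 0.66). Hspa4, Hspa2, Hyou1, Hspa12a and Hspa12b also had no call, with log2 fold changes from -0.48 for Hspa12b to 0.15 for Hspa2.

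**Figure D1:**
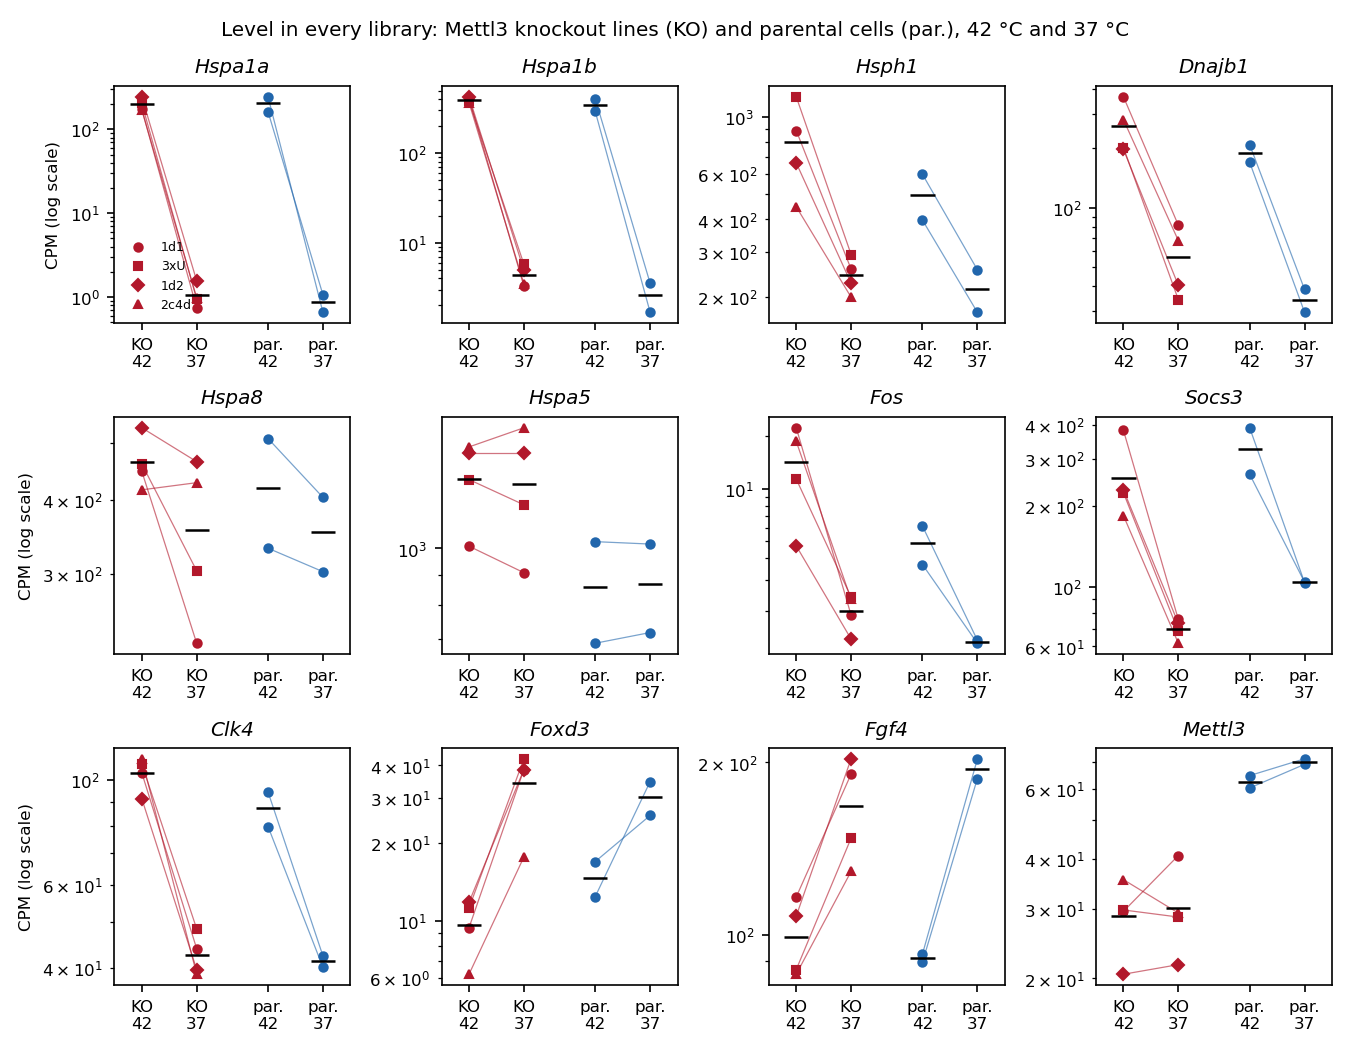
Level of 12 genes in every library, in TMM-scaled CPM on a log axis. Red symbols are the 4 Mettl3 knockout lines (KO), blue circles the parental cells (par.); thin lines join the libraries of 1 line and black bars are group means. Hspa1a and Hspa1b stood at 170 to 426 CPM in every heated knockout library, against 0.738 to 5.75 CPM in those at 37 °C, while Hspa5 and Mettl3 had no call.

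Among 28 J-domain proteins and BAG factors, the partners that load substrates onto HSP70 and release them, 7 rose (25%) and 2 fell (7.14%). Of all genes tested 3.87% rose and 2.9% fell. The median log2 fold change of the list was 0.01. Dnajb1, the main cytosolic HSP40, had 365, 201, 197 and 279 CPM at 42 °C and 81.4, 34.1, 40.3 and 68 CPM at 37 °C. Each line rose by a similar factor from its own level (4.78-fold; log2 2.26 ± 0.09, adjusted p = 3.03e-07). Dnaja4, another J-domain protein, had 7.07, 10.8, 10.7 and 11.2 CPM at 42 °C and 3.16, 2.41, 1.99 and 1.96 CPM at 37 °C (4.22-fold, adjusted p = 0.000519). Bag3, which couples HSP70 to selective autophagy, rose 1.65-fold in groups that overlapped, with line 1d1 highest at both temperatures (adjusted p = 0.00171). Dnajb9, a J-domain protein of the endoplasmic reticulum, rose 1.63-fold (adjusted p = 0.00408). Dnaja1, Bag4 and Dnajb4 rose 1.74-fold, 1.26-fold and 1.46-fold; the calls of Dnaja1 and Bag4 were lost without line 3xU (adjusted p = 0.17 and 0.193) or 1d2, and that of Bag4 also without 1d1. Dnajb4 and the falling members Dnajc2 (0.755-fold) and Dnajc21 (0.819-fold) stand outside the naming rule and were named after their values were seen. None of these 3 belongs to the core called without each line in turn, and 4 members of the list rose without 3xU or without 1d2.

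Of 28 HSP90 genes, co-chaperones, chaperonins and small HSPs, 5 rose (17.9%) and none fell, against 3.87% and 2.9% of all genes tested. In this list 24 were above 0 and the median log2 fold change was 0.13. Serpinh1, the collagen chaperone HSP47, had 120, 146, 151 and 165 CPM at 42 °C and 72.7, 62.9, 59.8 and 84.7 CPM at 37 °C, with no overlap (2.08-fold, adjusted p = 0.000374). Hspb1, the small heat shock protein HSP25, averaged 37.3 ± 14.2 CPM at 42 °C and 18.9 ± 9.04 CPM at 37 °C (SD, n = 4 each). It rose in every line although the groups overlapped (log2 1.00 ± 0.14, adjusted p = 0.00206). Hspb8, the small HSP that works with BAG3, rose 1.54-fold (adjusted p = 0.00181). The mitochondrial co-chaperonin gene Hspe1 rose 1.41-fold and the HSP90 activator homologue Ahsa2 1.47-fold; without line 3xU their adjusted p-values were 0.0731 and 0.192, and Ahsa2 also lost its call without 1d1. Without 3xU 3 members of the list rose. HSP90 itself did not pass: Hsp90aa1, its inducible form, averaged 542 ± 112 CPM at 42 °C and 445 ± 106 CPM at 37 °C (adjusted p = 0.13), a gene named after its values were seen.

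Regulators of the response gave 3 rises (25%) and 1 fall (8.33%) among 12 tested, against 3.87% and 2.9% of all genes tested. Dedd2 rose 2.09-fold with no overlap between groups (adjusted p = 0.00179). Ier5, which promotes the active form of HSF1, had 3.59 to 14.2 CPM at 42 °C and 1.16 to 8.99 CPM at 37 °C (adjusted p = 0.0381; lost without 1d1, 3xU or 1d2, with 0.165 without 3xU). Tpr, a nuclear pore basket protein, fell to 0.751 times its 37 °C level (adjusted p = 0.0419; lost without 3xU, 1d2 or 2c4d, with 0.19 without 3xU). RNA of Hsf1 itself averaged 19.3 ± 3.2 CPM at 42 °C and 22.4 ± 7.51 CPM at 37 °C (SD, n = 4 each; adjusted p = 0.54).

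Immediate early genes, which cells transcribe within minutes of many stimuli without new protein synthesis, were the next group. Of 36 tested 17 rose (47.2%) and 3 fell (8.33%), against 3.87% and 2.9% of all genes tested. The median log2 fold change of the list was 0.39. Fos, a subunit of the AP-1 transcription factor, had 22.2, 11.3, 4.72 and 18.6 CPM at 42 °C and 1.9, 2.41, 1.39 and 2.34 CPM at 37 °C. The rise was largest in 1d1 and smallest in 1d2, with no overlap (6.61-fold; log2 2.72 ± 0.24, adjusted p = 0.000164). Its partner Jun had 39.9, 59.4, 24.9 and 47.3 CPM at 42 °C and 9.8, 23.2, 10.4 and 10.9 CPM at 37 °C (3.21-fold, adjusted p = 0.000165). Junb rose 2.97-fold (adjusted p = 0.000607). The growth arrest genes Gadd45g and Gadd45b rose 5.01-fold and 3.21-fold (adjusted p = 0.000273 and 6.32e-05). Zfp36, whose protein destabilises AU-rich mRNAs, and the neuronal activity gene Arc rose 2.94-fold and 2.34-fold. Without line 3xU 12 members of the list rose and none fell. Slc5a3, the myo-inositol transporter, and Ccdc117 are in no list but were among the 15 largest rises: Slc5a3 rose 3.34-fold (adjusted p = 0.00111), with 59.2, 66.5, 23.8 and 20.9 CPM at 42 °C and 15.1, 11.3, 7.97 and 11.9 CPM at 37 °C, and Ccdc117 rose 2.98-fold (adjusted p = 1.1e-05).

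The members that fell were Fosl1, Myc and Sgk1, named after their values were seen. Fosl1, another AP-1 subunit, had 0.512 to 2.23 CPM at 42 °C and 1.37 to 7.22 CPM at 37 °C (0.451-fold, adjusted p = 0.0354). Myc, the growth-promoting transcription factor, averaged 31.4 ± 11.3 CPM at 42 °C and 47.4 ± 10.8 CPM at 37 °C (SD, n = 4 each; adjusted p = 0.0377). Sgk1, a serum-induced kinase, averaged 162 ± 35.6 CPM at 42 °C and 230 ± 38 CPM at 37 °C (adjusted p = 0.0261). None of the 3 falls belongs to the core called without each line in turn. Among p53 targets 3 of 20 rose (15%) and 1 fell (5%), against 3.87% and 2.9% of all genes tested. Gadd45a rose 1.93-fold, Pmaip1, which encodes the pro-apoptotic NOXA, 1.67-fold, and Btg2 1.44-fold. Plk2, a stress-induced polo-like kinase, fell to 0.686 times its 37 °C level. Btg2 and Plk2 lost their call without 3xU (adjusted p = 0.0833 and 0.241), and Plk2 also without 1d2. Gadd45a and Btg2 are also on the immediate early list.

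**Figure D2:**
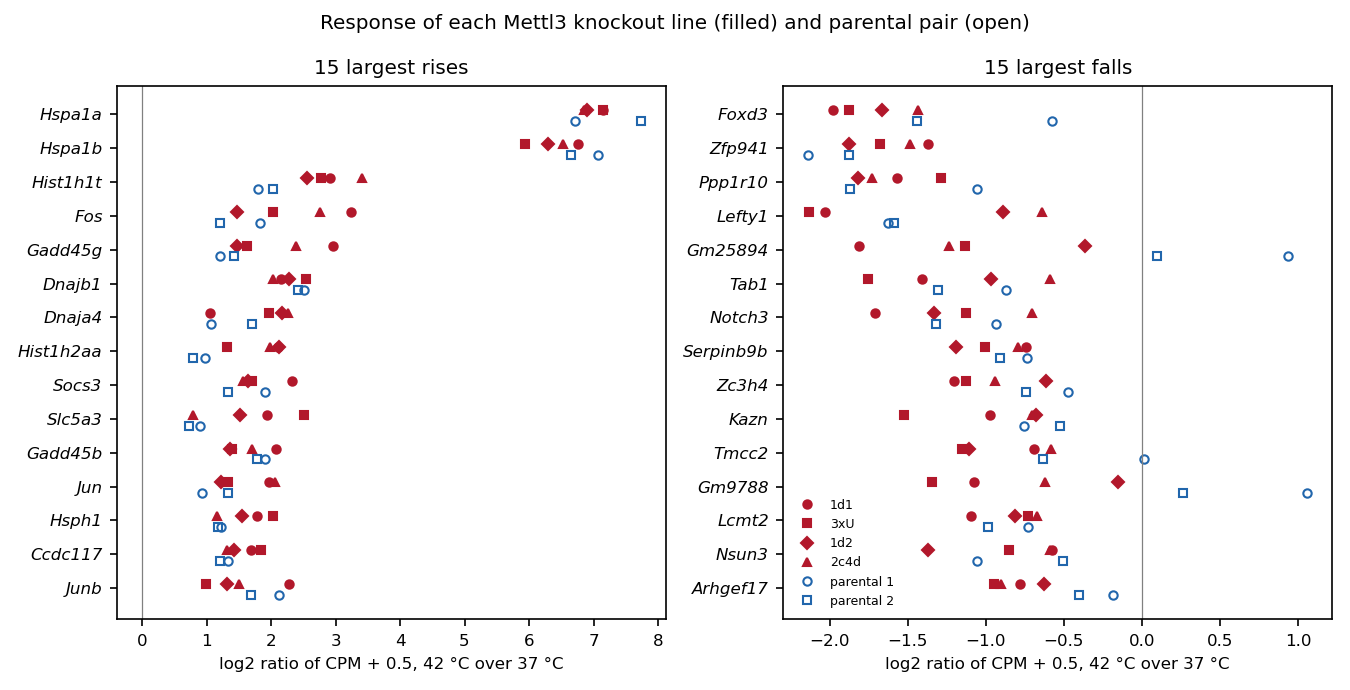
Log2 ratio of CPM + 0.5 at 42 °C over 37 °C in each line for the 15 largest rises (left) and 15 largest falls (right). Filled red symbols are the 4 knockout lines and open blue symbols the parental pairs. Every knockout line lies on the same side of 0 for all 30 genes, which the naming rule required. The parental pairs lie on the other side of it for Gm25894 and Gm9788.

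Of 22 genes of the unfolded protein and integrated stress responses 4 rose (18.2%) and none fell, against 3.87% and 2.9% of all genes tested. The median log2 fold change of the list was 0.14. Herpud1, of endoplasmic reticulum associated degradation, had 17.5, 11.2, 8.58 and 12.7 CPM at 42 °C and 8.12, 4.81, 5.37 and 7.16 CPM at 37 °C, without overlap (1.94-fold, adjusted p = 0.00326). Ddit4, an inhibitor of mTORC1, Trib3, a pseudokinase, and Chac1, which degrades glutathione, rose 1.58-fold, 1.45-fold and 1.68-fold. Without 3xU the adjusted p of Ddit4 was 0.0687, and without 1d2 that of Trib3 was 0.0785; Trib3 was also lost without 3xU. The call of Chac1 (adjusted p = 0.0391) was lost when any 1 of the 4 lines was left out (adjusted p up to 0.219). Ddit3, the transcription factor CHOP, missed the threshold (1.71-fold, adjusted p = 0.0879). In the oxidative stress list none of 11 rose, and Hmox1, the haem oxygenase, fell in every line (0.59-fold; log2 -0.76 ± 0.12, adjusted p = 0.00335). Its level in line 1d1 was 89.3 CPM at 42 °C and 204 CPM at 37 °C, against 30.6 to 41.3 CPM and 47.1 to 65.2 CPM in the other lines.

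Among 23 naive and core factors 6 fell (26.1%) and 1 rose (4.35%), against 2.9% and 3.87% of all genes tested. The median log2 fold change of the list was -0.20. Tdgf1, the Nodal co-receptor Cripto, had 179, 332, 519 and 316 CPM at 42 °C and 286, 484, 792 and 496 CPM at 37 °C, a similar loss in each line (0.65-fold; log2 -0.62 ± 0.07, adjusted p = 0.000675). Sox2, a core pluripotency factor, had 349, 289, 270 and 310 CPM at 42 °C and 515, 428, 384 and 449 CPM at 37 °C, with no overlap (0.686-fold, adjusted p = 0.00252). Nanog, Tbx3 and Sall4 fell to 0.721, 0.736 and 0.771 of their 37 °C level; these 3 calls were lost without line 3xU (adjusted p = 0.104, 0.148 and 0.194) and without 1d2. Fbxo15 fell to 0.795 times its 37 °C level, and Pou5f1, which encodes OCT4, averaged 699 ± 154 CPM at 42 °C and 673 ± 154 CPM at 37 °C (adjusted p = 0.765); both were named after their values were seen. The member that rose was Socs3, the feedback inhibitor of LIF and STAT3 signalling, with 383, 224, 230 and 184 CPM at 42 °C and 75.7, 68.4, 73.2 and 61.7 CPM at 37 °C (3.53-fold, adjusted p = 4.23e-05). Without line 3xU or without line 1d2, 2 members of the list fell.

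Foxd3, a transcription factor of the pluripotent epiblast, led the 15 largest falls, which require a mean of at least 2 log2 CPM. It had 9.43, 11.2, 11.8 and 6.23 CPM at 42 °C and 38.6, 42.5, 38.6 and 17.7 CPM at 37 °C, without overlap although line 2c4d was low at both temperatures (0.288-fold; log2 -1.80 ± 0.15, adjusted p = 8.46e-05). In the FGF-ERK and Nodal list 6 of 19 fell (31.6%) and 2 rose (10.5%), against 2.9% and 3.87% of all genes tested. Fgf4, the ERK-activating ligand made by stem cells, had 116, 86.8, 108 and 85.2 CPM at 42 °C and 191, 147, 203 and 129 CPM at 37 °C (0.595-fold, adjusted p = 0.000482). Lefty1, a secreted Nodal antagonist, had 7.99, 8.3, 11.2 and 13.3 CPM at 42 °C and 34.2, 38.1, 21.2 and 21 CPM at 37 °C. Its fall was deepest in 1d1 and 3xU (0.369-fold, adjusted p = 0.00419), and Lefty2 followed at 0.582-fold (adjusted p = 0.00688; 0.0735 without 3xU). Smad6, an inhibitor of BMP signalling, fell to 0.516 times its 37 °C level, whereas the BMP target Id1 and the ERK inhibitor Spry1 rose 1.47-fold and 1.49-fold. The call of Smad6 was lost without 1d2 (adjusted p = 0.0527), that of Id1 without 3xU (0.0645) and that of Spry1 without 3xU (0.0723) or 2c4d. Without line 3xU or without line 1d2, 3 members of the list fell.

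Further genes of the 15 largest falls had varied roles. Ppp1r10, the nuclear targeting subunit of protein phosphatase 1, had 37.9, 48.7, 21.5 and 21.3 CPM at 42 °C and 114, 119, 77.3 and 71.6 CPM at 37 °C (0.327-fold, adjusted p = 8.46e-05). Zfp941, a zinc finger gene, had 6.08 ± 0.904 CPM at 42 °C and 19.4 ± 1.74 CPM at 37 °C (SD, n = 4 each; 0.313-fold, adjusted p = 4.23e-05). Zc3h4, whose protein limits transcription of noncoding RNA, fell to 0.507 times its 37 °C level (adjusted p = 0.000519). Notch3, a Notch receptor, and Tab1, an activator of the kinase TAK1, fell to 0.424 and 0.422 times their 37 °C levels (adjusted p = 0.00125 and 0.00404). The rest of the 15 largest falls had fold changes between 0.42 for Gm25894 and 0.558 for Arhgef17, and Gm25894, Gm9788, Tmcc2 and Nsun3 lost their call without line 3xU (adjusted p = 0.0973, 0.247, 0.0822 and 0.0742). Tmcc2 and Nsun3 also lost it without 1d2, and Gm9788 without 1d1 or 2c4d.

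Of 53 tested replication-dependent histone genes 21 rose (39.6%) and none fell, against 3.87% and 2.9% of all genes tested. In this list 32 had no call, 48 were above 0, and the median log2 fold change was 0.61. Hist1h1t, the testis-type linker histone, had 18.4, 23.6, 18.2 and 47.8 CPM at 42 °C and 2, 3.03, 2.69 and 4.07 CPM at 37 °C (8.89-fold; log2 3.15 ± 0.15, adjusted p = 9.52e-07). Hist1h2aa, a testis-type H2A gene, had 19, 8.3, 12.9 and 20.6 CPM at 42 °C and 4.01, 3.03, 2.6 and 4.82 CPM at 37 °C (4.15-fold, adjusted p = 4.23e-05). Both were raised in all 4 lines with no overlap. Among the ordinary S-phase genes Hist1h2bk had 126, 154, 180 and 145 CPM at 42 °C and 56.2, 59.2, 84 and 87.9 CPM at 37 °C (2.12-fold, adjusted p = 0.000646), and Hist1h4d rose 1.95-fold (adjusted p = 0.000648). Many histone genes are near-identical copies, and reads shared between them could be assigned to either. Without line 3xU 9 members rose, and without line 1d2 12 rose. In parental cells the median was 0.62, with 6 rises and no fall, and the difference between genotypes was not tested for the list.

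**Figure D3:**
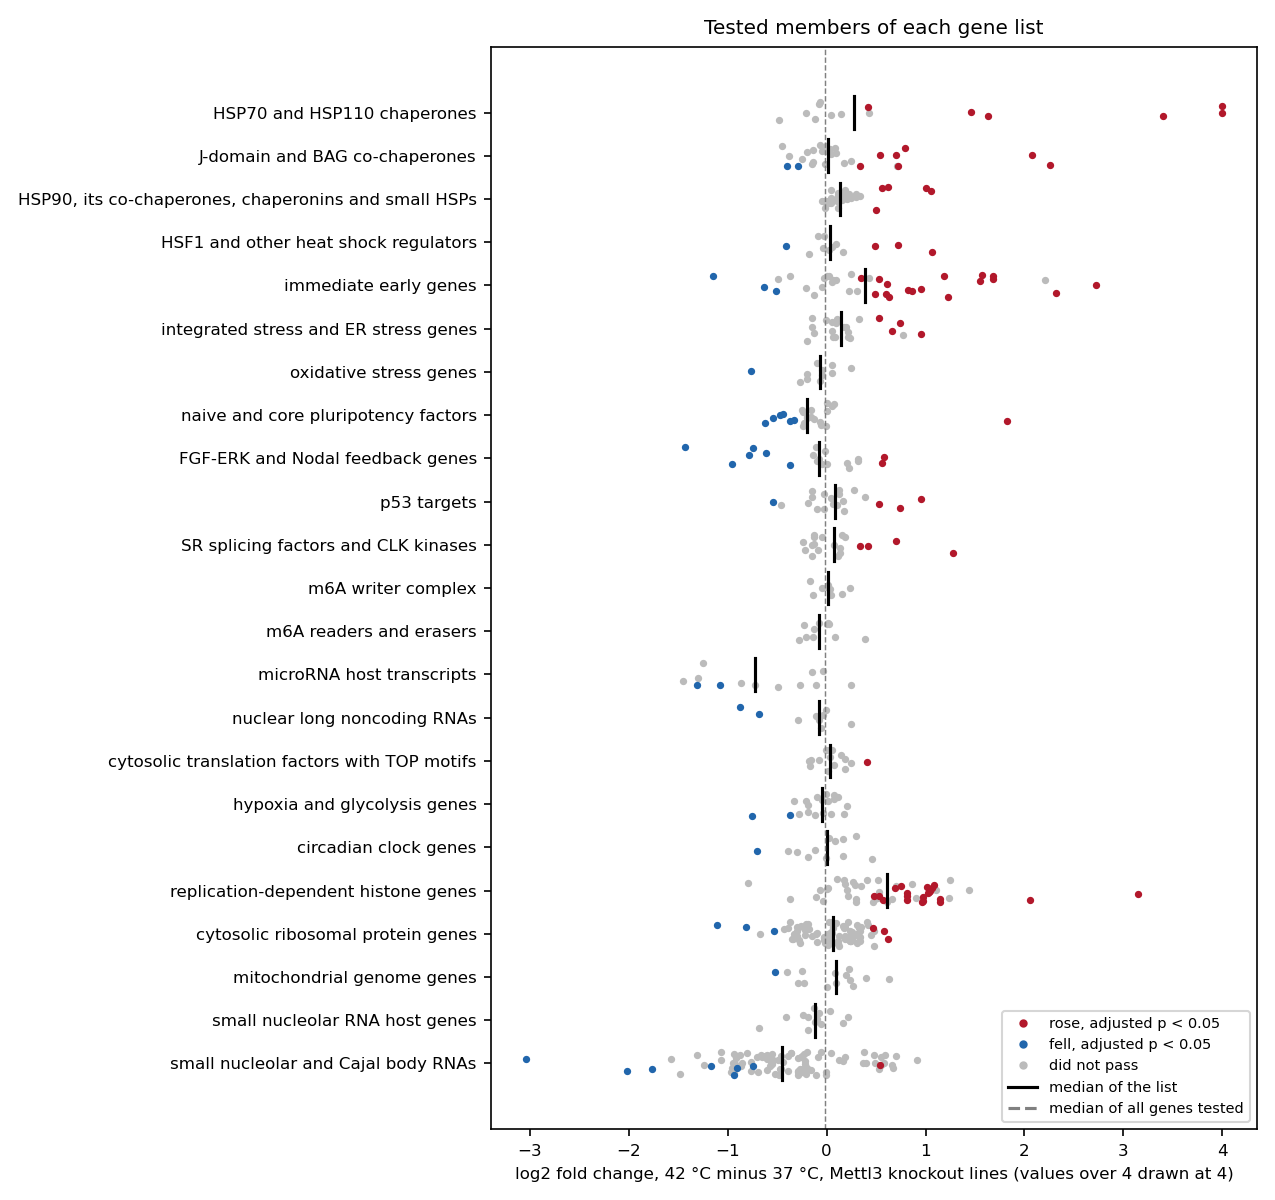
Log2 fold change in the knockout lines of every tested member of each gene list, with members that rose in red, members that fell in blue and the others in grey. Black bars mark list medians (0.61 for histone genes, 0.39 for immediate early genes, -0.73 for microRNA host transcripts) and the dashed line the median of all genes tested, -0.02.

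Of 19 SR splicing factors and their kinases 4 rose (21.1%) and none fell, against 3.87% and 2.9% of all genes tested. The 4 were the kinases Clk4 and Clk1 and the factors Tra2a and Srsf7. The other kinases, Clk2, Clk3, Srpk1 and Srpk2, looked up after the values were seen, had no call, with log2 fold changes of -0.09, -0.13, -0.13 and -0.22. Clk4, a kinase that phosphorylates SR splicing factors, had 104, 108, 91.4 and 111 CPM at 42 °C and 44, 48.4, 39.7 and 38.8 CPM at 37 °C (2.43-fold; log2 1.28 ± 0.09, adjusted p = 2.77e-05). Its 4 lines were close together in both groups. Clk1 rose 1.62-fold (adjusted p = 0.00931; 0.054 without 1d2), and Tra2a and Srsf7 rose 1.33-fold and 1.26-fold. Without 3xU the adjusted p-values of Tra2a and Srsf7 were 0.0684 and 0.229, and Srsf7 also lost its call without 1d1 or 1d2. None of 9 genes of the m6A writer complex and none of 11 readers and erasers had a call, with medians of 0.01 and -0.08. At an unadjusted p under 0.05 the knockout comparison as a whole had 3448 genes.

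Lists of noncoding RNAs had medians below 0 to unlike degrees. Of 13 microRNA host transcripts 12 were below 0, with a median log2 fold change of -0.73, and 2 fell (15.4%, against 2.9% of all genes tested). The median was -0.08 for 9 nuclear long noncoding RNAs, of which 2 fell (22.2%). It was -0.12 for 13 small nucleolar RNA host genes and -0.02 over all genes tested. In parental cells 11 of the 13 microRNA host transcripts were below 0, with a median of -0.815. The list counts some loci more than once: Mir290a and Mir291a lie in the same cluster, and Mir19b-1 lies beside Mir17hg. Mir17hg, the host of the miR-17-92 cluster, had 34.7, 47.5, 9.18 and 6.66 CPM at 42 °C and 56.2, 115, 29.6 and 23.1 CPM at 37 °C. Lines 1d1 and 3xU were above 1d2 and 2c4d at both temperatures, and each line fell (0.403-fold; log2 -1.31 ± 0.15, adjusted p = 0.000806). Mir291a of the stem cell miR-290 cluster fell to 0.472 times its 37 °C level, a call lost without 3xU (adjusted p = 0.265) or 1d1. Neat1, the scaffold of nuclear paraspeckles, had 68.8, 90.3, 14.2 and 9.26 CPM at 42 °C and 143, 170, 26.5 and 13.2 CPM at 37 °C (0.546-fold, adjusted p = 0.0035; 0.0507 without 3xU). Tsix, the antisense partner of Xist, was the other of 9 nuclear long noncoding RNAs that fell (0.621-fold, adjusted p = 0.0228; lost without 3xU, with 0.201, or 1d2), and reads of antisense partners cannot be told apart where the counting strand is not given. Malat1, another abundant nuclear RNA, averaged 4090 ± 3294 CPM at 42 °C and 4064 ± 2957 CPM at 37 °C (SD, n = 4 each) and had no call.

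The remaining lists held few calls in number. Of 85 cytosolic ribosomal protein genes 3 rose and 3 fell (3.53% each way), against 3.87% and 2.9% of all genes tested. In the smaller lists below, 1 or 2 calls made larger shares. Falls were 10% of the hypoxia and glycolysis list, 8.33% of clock genes and 7.14% of mitochondrial genome genes, and the rise was 6.67% of translation factors. Many of these genes have processed pseudogenes, and Gapdh, which fell to 0.592 times its 37 °C level with Slc2a1 (0.773-fold) in the hypoxia and glycolysis list, stood at only 11.8 to 20.9 CPM at 42 °C and 22.7 to 36.2 CPM at 37 °C, so the counts of such genes are uncertain. Gapdh and Slc2a1 lost their calls without 3xU (adjusted p = 0.205 and 0.211) or 1d1, Gapdh also without 2c4d and Slc2a1 without 1d2. Of 14 tested genes of the mitochondrial genome mt-Nd1 alone had a call, at 0.698 times its 37 °C level (adjusted p = 0.00688), lost without 3xU (0.111) or 1d2. Nr1d1 was the 1 faller of 12 clock genes (0.614-fold) and Eif3f the 1 riser of 15 translation factors (1.33-fold); both calls were lost without 3xU (adjusted p = 0.222 and 0.145), that of Nr1d1 also without 1d2 or 2c4d and that of Eif3f without 1d1. None of 13 small nucleolar RNA host genes had a call.

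The 4 lines differed in how strongly they responded. The median log2 ratio of the genes that rose was 0.633 in 1d1, 0.647 in 3xU, 0.493 in 1d2 and 0.482 in 2c4d; for genes that fell it was -0.48, -0.541, -0.423 and -0.495. These medians describe the genes that the same libraries selected. Across 11144 genes with at least 2 log2 CPM on average, the responses of 1d1 and 3xU correlated at r = 0.67 and those of 1d2 and 2c4d at 0.581. Across the pairs r was between 0.172 for 1d1 with 2c4d and 0.545 for 3xU with 1d2. Each correlation is across genes, which are not independent, and the titles number 1d1 with 3xU and 1d2 with 2c4d. With a heat effect for each pair of lines, an alternative chosen after the data were seen, 978 genes rose and 687 fell in 1d1 and 3xU, and 256 rose and 334 fell in 1d2 and 2c4d. Shared by both were 195 rises and 85 falls, and 22 genes differed between the pairs of lines.

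Parental cells heated in the same way gave 69 rises (0.441% of genes tested) and 50 falls (0.32%) from 2 pairs of libraries, fewer than the 4 knockout pairs. Of these, 51 rises and 42 falls were also called in the knockout lines, 73.9% and 84% of the parental calls and 8.43% and 9.27% of the knockout calls. Among the 605 genes that rose in the knockout lines 92.7% were higher at 42 °C in parental cells, against 48.6% of all genes tested. Of the 453 that fell 95.1% were lower, against 51.4%. Hspa1a had 163 and 246 CPM at 42 °C and 1.06 and 0.657 CPM at 37 °C in parental cells, and its difference in log2 fold change, knockout minus parental, was -0.31 (95% interval -1.10 to 0.49). For Dnajb1 that difference was -0.23 (-0.58 to 0.13), for Hsph1 0.43 (-0.02 to 0.87) and for Fos 0.88 (-0.19 to 1.96). All 4 intervals hold 0, and their width leaves room for differences of up to 1.96 on the log2 scale in Fos. Hist1h1t had 25.8 and 21.1 CPM at 42 °C and 7.07 and 4.76 CPM at 37 °C in parental cells, and its difference of 1.15 (0.61 to 1.70) excludes 0 but did not pass the adjustment (adjusted p = 0.344). Among the 1058 genes changed in the knockout lines, 165 had an interval that excludes 0 (15.6%, against 6.09% of all genes tested), and 816 had a smaller absolute fold change in parental cells. These genes were called from the same knockout libraries, so neither count is an independent comparison of the genotypes.

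**Figure D4:**
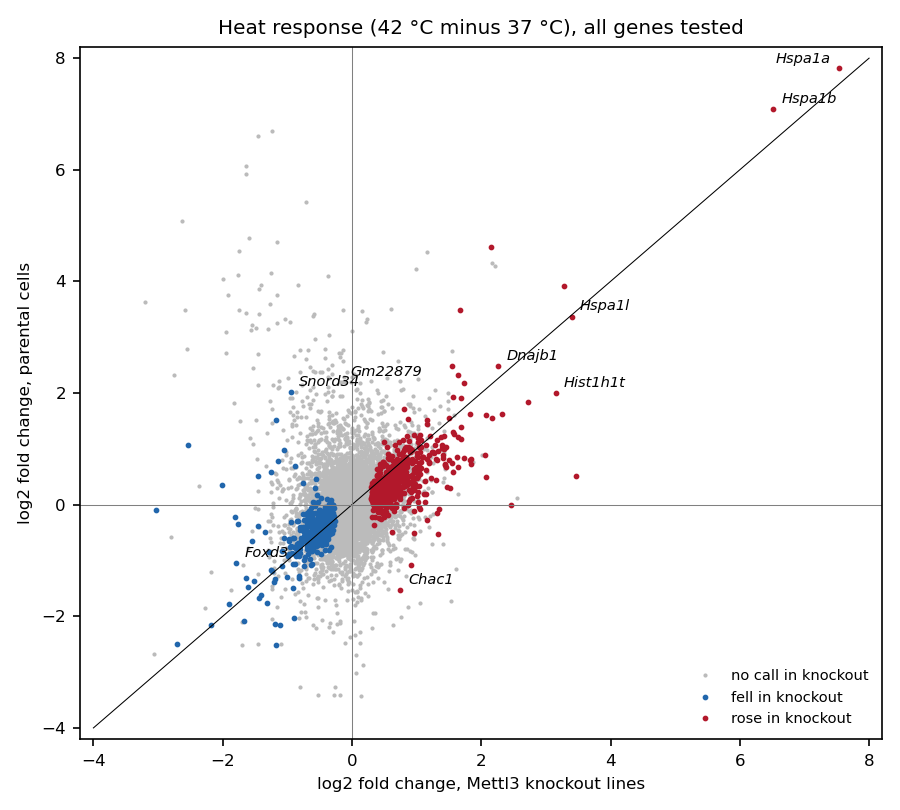
Log2 fold change at 42 °C against 37 °C in the Mettl3 knockout lines (x axis) and in parental cells (y axis) for the 15635 genes tested; the diagonal marks equal responses. Red and blue points are the 605 genes that rose and the 453 that fell in the knockout lines; Snord34 and Gm22879 lie far above the diagonal.

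The responses themselves were called different between genotypes for 2 genes (0.0128% of those tested), both small noncoding RNAs with a lower response in the knockout lines. Snord34, a box C/D small nucleolar RNA, had 7.69, 6.17, 7.55 and 2.34 CPM at 42 °C and 17.9, 13.6, 8.49 and 6.03 CPM at 37 °C in the knockout lines. Parental cells had 20 and 18.4 CPM at 42 °C and 4.26 and 5.17 CPM at 37 °C. It was lower at 42 °C in each knockout line and higher in each parental pair (difference in log2 fold change -2.96 ± 0.32, adjusted p = 0.0116). Gm22879 had 55, 56.2, 97.7 and 44.5 CPM at 42 °C and 62.2, 54.8, 77.6 and 77.3 CPM at 37 °C in the knockout lines, against 117 and 178 CPM at 42 °C and 27 and 36.7 CPM at 37 °C in parental cells (difference -2.35 ± 0.26, adjusted p = 0.0116). Without either parental pair neither passed (adjusted p = 0.0549 to 0.247), nor did they without line 3xU (adjusted p = 0.091). Chac1 was called upward in the knockout lines and downward in parental cells, and its difference of 2.27 (1.60 to 2.95) missed the threshold (adjusted p = 0.0659). The 96 tested small nucleolar and Cajal body RNAs had a median log2 fold change of -0.45 in the knockout lines (1 rose, 7 fell) and 0.96 in parental cells (8 rose, none fell). In the knockout lines 1.04% of them rose and 7.29% fell, against 3.87% and 2.9% of all genes tested. The 7 falls came down to 1 without line 1d1 and 2 without 3xU; the deepest, Snora78, a box H/ACA RNA, had 0 to 0.304 CPM at 42 °C and 0.377 to 2.11 CPM at 37 °C. Their share of the library was lower at 42 °C in lines 1d1, given above, and 3xU (0.131% at 42 °C and 0.176% at 37 °C). It was higher at 42 °C in line 1d2 (0.111% at 42 °C and 0.0884% at 37 °C), line 2c4d (0.106% and 0.0876%), parental 1 and parental 2 (0.114% and 0.0826%). The share thus did not move one way across the knockout lines, and its part in these values was not tested.

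The genes that moved differed in size and make-up from all genes tested. The median span from first to last exon was 11614 bases for 577 placed genes that rose and 39222 bases for 434 that fell, against 19755 bases for 14907 tested genes. Spans under 5 kb made up 26.7% of the rises, 8.76% of the falls and 20.6% of the genes tested. Symbols of the Zfp series, most of them zinc finger transcription factors, made up 46 of the 605 rises (7.6%) and 23 of the 453 falls (5.08%), against 361 of 15635 genes tested (2.31%). Span and Zfp share were chosen after the values were seen and are descriptions without a test. Level differed too: the median in the knockout lines at 37 °C was 20.5 CPM for rises and 44.1 CPM for falls, against 14.9 CPM for all genes tested. Median exon widths were 3369, 5099 and 3299 bases. The part of level in the contrast of spans was not tested.

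ChIP from the same series gave another readout at these genes, in cells with METTL3 present: tagged METTL3 (libraries H4 and H5) and tagged DGCR8, the RNA-binding subunit of the Microprocessor, at 42 °C and 37 °C. There is 1 library per condition and precipitate, so no test was made, and values are summed over the 5 kb windows that overlap a gene. Titles and source names conflict for several of these samples; titles were followed, as they match the numbers that the treatment protocol gives for heated samples. Over Hspa1a, METTL3 reached 1551 (H4) and 2602 (H5) CPM per window at 42 °C and 4.38 and 3.44 CPM at 37 °C, and DGCR8 reached 49.2 CPM at 42 °C and 3.19 CPM at 37 °C. Over Dnajb1 METTL3 had 138 and 104 CPM at 42 °C and 11.5 and 12.2 CPM at 37 °C, and over Hsph1 77.3 and 45.4 CPM at 42 °C and 4.16 and 3.97 CPM at 37 °C. The inputs, made at 37 °C only, held 4.80 to 7.63 CPM per window over Hspa1a in the METTL3 cells.

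Ratios varied widely among the genes that rose, chaperones included. In H4 and H5 the log2 ratio of METTL3 was 3.16 and 2.73 at Hspb1 and 2.06 and 1.62 at Hspe1, but 0.92 and 0.12 at Dnaja4 and -0.18 and -0.10 at Hspa13. Chaperones without an RNA call varied as well, with 0.88 and 0.52 at Hspa8 and -1.24 and -1.84 at Hspa5. The log2 ratio of METTL3 at 42 °C over 37 °C was 1.40 and 2.10 at Jun and 0.15 and 0.39 at Fos. Medians over all placed genes were -0.28 and -0.15 in H4 and H5. The libraries did not always go together: H4 and H5 had -1.08 and 1.11 at Socs3, -0.76 and 1.48 at Zfp36, and 0.06 and 2.02 at Junb. Both were below 0 at Ccdc117 (-0.42 and -0.45). Among the 14 placed genes of the 15 largest falls the METTL3 ratio ran from -2.60 in H4 at Lefty1 and -2.62 in H5 at Foxd3 to -0.04 and 0.21 at Serpinb9b. It was -1.57 and -0.89 at Ppp1r10, but -0.40 and -0.21 at Notch3, -0.28 and 0.06 at Kazn and -0.16 and -0.09 at Nsun3. At Fgf4, a smaller fall, it was -1.80 and -1.37. These ratios cover unlike numbers of windows: 1 at Foxd3 and Lefty1, 2 at Fgf4, and 4 at Ppp1r10 and Serpinb9b. Notch3 covered 10, Nsun3 12 and Kazn 28. The part of gene length in the ratios, and in the medians that follow, was not tested. Over all genes that rose the medians of the METTL3 ratio were -0.39 and -0.19 and over all that fell -0.41 and -0.29, both below the medians of all genes. For DGCR8 the medians were -0.56 for genes that rose, -0.62 for genes that fell and -0.42 for all. Neighbouring genes that share a window share its value, as Hspa1a and Hspa1l do.

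**Figure D5:**
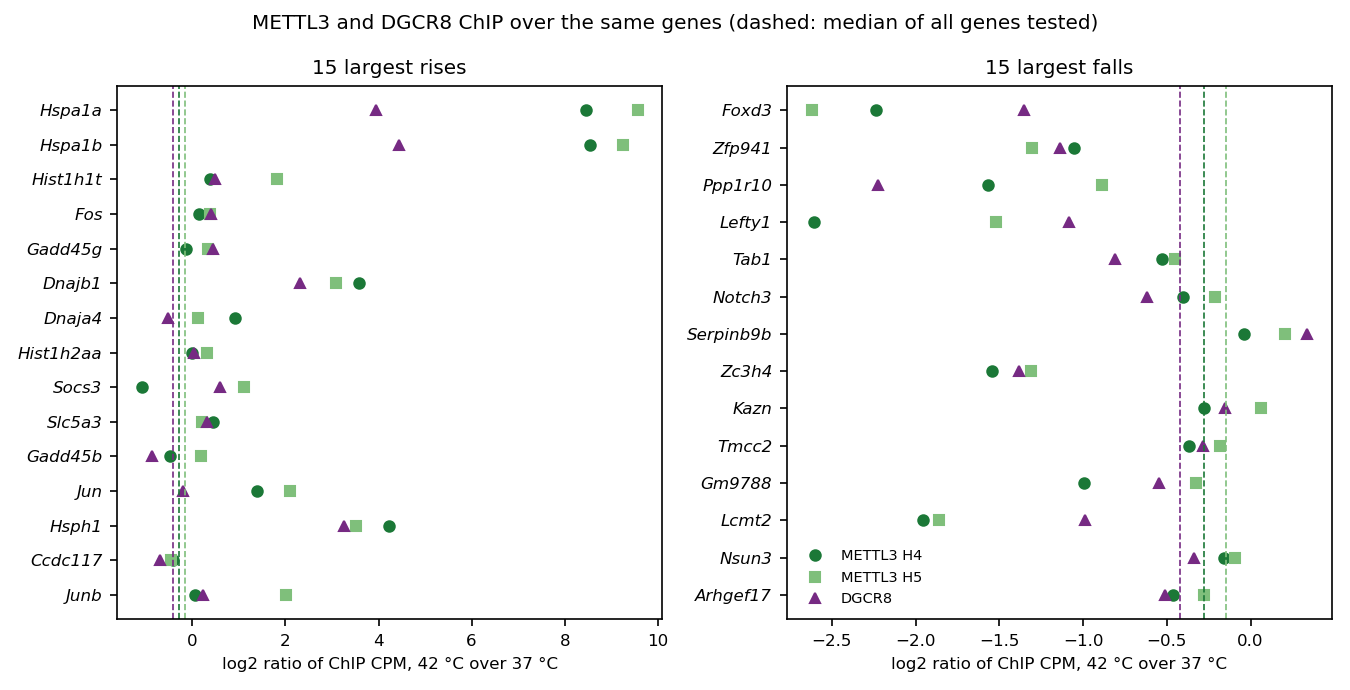
Log2 ratio of ChIP CPM at 42 °C over 37 °C for METTL3 (H4, H5) and DGCR8 over the genes with the 15 largest rises (left) and falls (right) that could be placed, from 1 library per condition. Dashed lines are medians of all genes tested (-0.28, -0.15 and -0.42); Hspa1a, Hspa1b, Dnajb1 and Hsph1 lie far to the right of them in all 3 precipitates.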

How the data were processed

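RNA-seq counts per gene of 12 heat libraries were used as deposited by the authors: whole reads per gene, not normalized, with Bowtie and mm10 named in the submitters' processing notes. The aligner's version, the counting tool, its strand setting and the annotation have no entry there (not given in the sources used here). Deposited ChIP counts per 5 kb window were divided by each library's total.

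Genes passing edgeR's filterByExpr (15635) were scaled by TMM and tested with edgeR 4.0.16 in R 4.3.3 (quasi-likelihood test, Benjamini-Hochberg adjustment over all of them, threshold 0.05) with the line as a block, in 1 fit over both genotypes with 4 residual degrees of freedom. Errors of log2 fold changes are SE derived from the F statistic of that test. Their variance comes from the fit over both genotypes and is not the spread over the 4 knockout pairs alone. Log2 ratios per line add 0.5 CPM. The pairing comes from the line names: deviations of the same line correlated at 0.641 to 0.742 in knockout lines and 0.476 in parental cells. A simulated data set with known changes was used to test the code.

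The text names Mettl3, all HSP70 and HSP110 genes, up to 15 rises and 15 falls by size (called, mean log2 CPM at least 2, same sign in 4 lines, no overlap), up to 6 members of each gene list by smallest p, and genes whose difference was called; exceptions are marked. Members and lists were chosen with earlier results of these data known. Alternatives were no block, DESeq2 1.42.0, RLE size factors, no filter on low counts, no mitochondrial or ribosomal RNA genes, the knockout libraries alone and leaving out each line. One gene that the naming rule selects is not reported here.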

Additional observations from a re-analysis of the deposited data

Results flagged for a closer look

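The knockout minus parental difference in heat response was called for Snord34 (log2 -2.96) and Gm22879 (log2 -2.35), both with adjusted p = 0.0116. Among 96 called genes named in the text, 3 had 1 line apart from the other lines; chance sets about 1 in 20 groups apart in this way. Hist1h2aa had a log2 ratio of 1.32 in line 3xU, against 1.99 to 2.12 in the other lines. Tra2a had 0.30 in line 1d1, against 0.44 to 0.47. Snord34 had -0.16 in line 1d2, against -1.20 to -1.08.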

How the results depend on the processing

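Counts of calls depended on the block by line: without it 26 genes rose and 3 fell in the knockout lines, no difference between genotypes was called (0 genes), and 3 genes changed in parental cells; 18 of the 96 named calls passed. With no filter on low counts 996 rose, 769 fell, 265 differed between genotypes and 779 changed in parental cells. DESeq2 called 446 rises, 360 falls, 15 differences and 180 parental changes; the cause was not tested. At an adjusted p under 0.01, 211 rose and 91 fell. With a separate heat effect for each pair of lines, fitted over all libraries of both genotypes, 1d1 and 3xU gave 978 rises and 687 falls. Lines 1d2 and 2c4d gave 256 and 334. With 1 line left out, rises ran from 189 (without 3xU) to 615, falls from 57 (without 3xU) to 439, and differences from 0 (without 3xU or either parental pair) to 11 (without 1d2); parental changes were 11 without parental 1 and 72 without parental 2. RLE factors, removal of mitochondrial and ribosomal RNA genes, and the knockout libraries alone kept rises and falls within 1.5 times. Among the 96 named genes with a call, none turned its direction without the block, with RLE factors, with no filter, or (95 genes) without mitochondrial and ribosomal RNA genes, or with any 1 knockout line left out, nor did the 92 with a value in DESeq2 and the 93 in the knockout libraries alone; the pairs of lines were not compared in this way.

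Of 98 named genes without a call, some turned their direction, with no call in the other setting. Without the block Malat1 was 0.0091 and Meg3 0.054 on the log2 scale. With 1 line left out the log2 fold change ran from -0.161 to 0.091 for Mettl3, -0.10 to 0.38 for Rian, -1.69 to 0.019 for Meg3, -1.09 to 0.76 for Xist, -0.45 to 0.053 for Col1a1 (0.037 without 3xU), -0.32 to 0.21 for Fbln2, -0.062 to 0.20 for Map2, -0.25 to 0.37 for Eomes, -0.11 to 0.012 for Gsc (-0.010 without 1d1), -0.33 to 0.043 for Hand1, -0.32 to 0.029 for Cdx2 and -0.30 to 0.077 for Gm22879. Depth limits low genes: Hspa1l and Snora78 had 0 counts in some libraries.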
